A study of Drosophila melanogaster with 8 samples.

Results

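The genes described here encode the machinery of nerve cells, from the RNA-binding proteins that mark neurons to the proteins of the synapse, the channels that carry electrical signals and the proteins that turn touch into current in sense organs. They were named as a list of 36 genes and looked up in the count table by FlyBase symbol and identifier. Of the 36, 34 were found among the 16845 genes of the table, while para and VAChT have identifiers in the annotation used here that are not rows of the table and were not analysed here. The list was drawn up by function and not from measured values, although it was chosen with earlier results of these data known.

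Poly-A RNA was measured in the terminalia (the developing genital and anal structures) of male pupae at 28 hr after puparium formation (APF), with 4 libraries, and at 24 hr APF, with 4 libraries. Each library came from the terminalia of 1 pupa, all pupae had the genotype yw;+;+, and no other treatment was applied. Total counts lay between 28463333 and 33831406 at 28 hr APF and between 24534188 and 35795240 at 24 hr APF. The tissue holds many cell types, so in all that follows a change in the number of cells of a type cannot be told apart from a change in RNA per cell. Whether the pupae of both time points were collected and processed together is not stated in the sources used here.

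In a fly neuron, transmitter is packed into vesicles that carry synaptobrevin, and these fuse with the membrane when synaptobrevin pairs with syntaxin and SNAP-25. Calcium that enters through channels at the active zone triggers fusion through synaptotagmins, and sodium and potassium channels shape the signal that opens the calcium channels. The external genitalia of flies bear mechanosensory bristles, each made by the division of a sense organ precursor into a neuron and its support cells, so sensory neurons are one place in this tissue where such genes are known to act.

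The terminalia carried these genes mostly at low levels, and the genes that moved between the time points moved up. After a filter on low counts, 29 of the 34 genes were tested, and 17 of them rose at 28 hr APF relative to 24 hr APF (edgeR's quasi-likelihood test on raw counts, adjusted p under 0.05 over all genes tested), which is 58.6% of those tested. Among all 11232 genes tested, 15.6% rose and 17.3% fell, 32.9% together. None of the 29 fell by this test, 1 of them, Shaw, had an unadjusted p under 0.05 with a lower level, and DESeq2 also called 17 higher, against 14.3% of all genes it tested, and none lower. The median log2 fold change (28 hr over 24 hr APF) of the 29 was 0.64, against 0.00 for all genes tested, and 25 of the 29 had a value above 0. In 13 of the 29 genes, or 44.8%, all 4 libraries at 28 hr APF lay above all 4 at 24 hr APF, which held for 13.2% of all genes tested, and in none did all 4 lie below, which held for 21.2%.

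**Figure D1:**
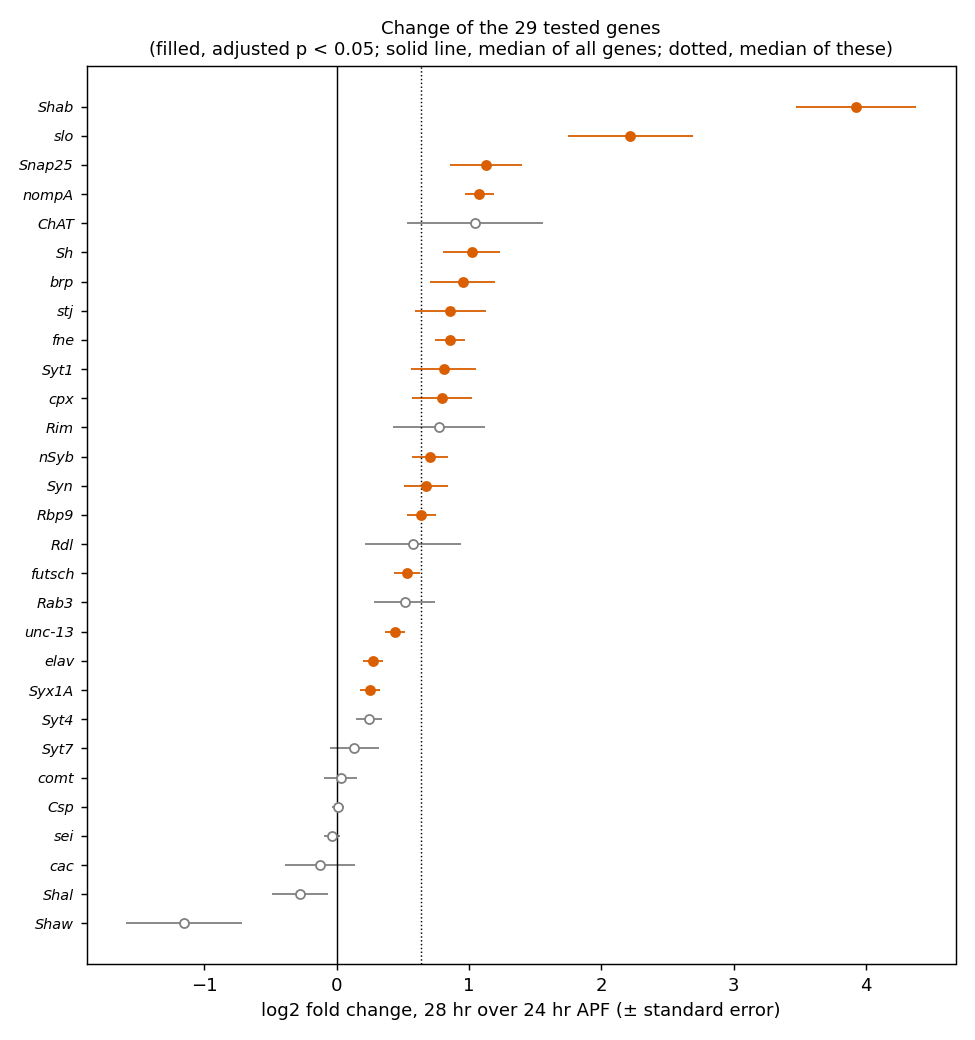
Log2 fold change (28 hr over 24 hr APF) with its standard error for the 29 tested genes. Filled points passed the test; the solid line is the median of all genes tested and the dotted line the median of the 29, at 0.64. Shab and slo lie farthest to the right, and all 17 filled points lie above 0.

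Levels were expressed as rpkm, the read count scaled by the length of the gene's exons and by the library's total count. At 28 hr APF, 4 of the 34 genes had a mean above 10 rpkm, 8 lay between 1 and 10 rpkm, 17 between 0.1 and 1 rpkm and 5 below 0.1 rpkm. At 24 hr APF, 11 lay above 1 rpkm. Thus 35.3% of the genes exceeded 1 rpkm in at least 1 time point, compared with 59.3% of the 16431 genes with a known length. Genes rose both above and below this level: 8 of the 12 tested genes with a mean of at least 1 rpkm over all libraries rose, against 15.8% of all genes in that range, and 9 of the 17 below it rose, against 14.8%. Exon lengths came from a later annotation, and the choice of length mattered for genes with many alternative exons: when only the longest transcript was measured, the level of unc-13 at 28 hr APF was 35.9 rpkm in place of 20.5 rpkm and that of Sh was 0.284 rpkm in place of 0.152 rpkm.

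**Figure D2:**
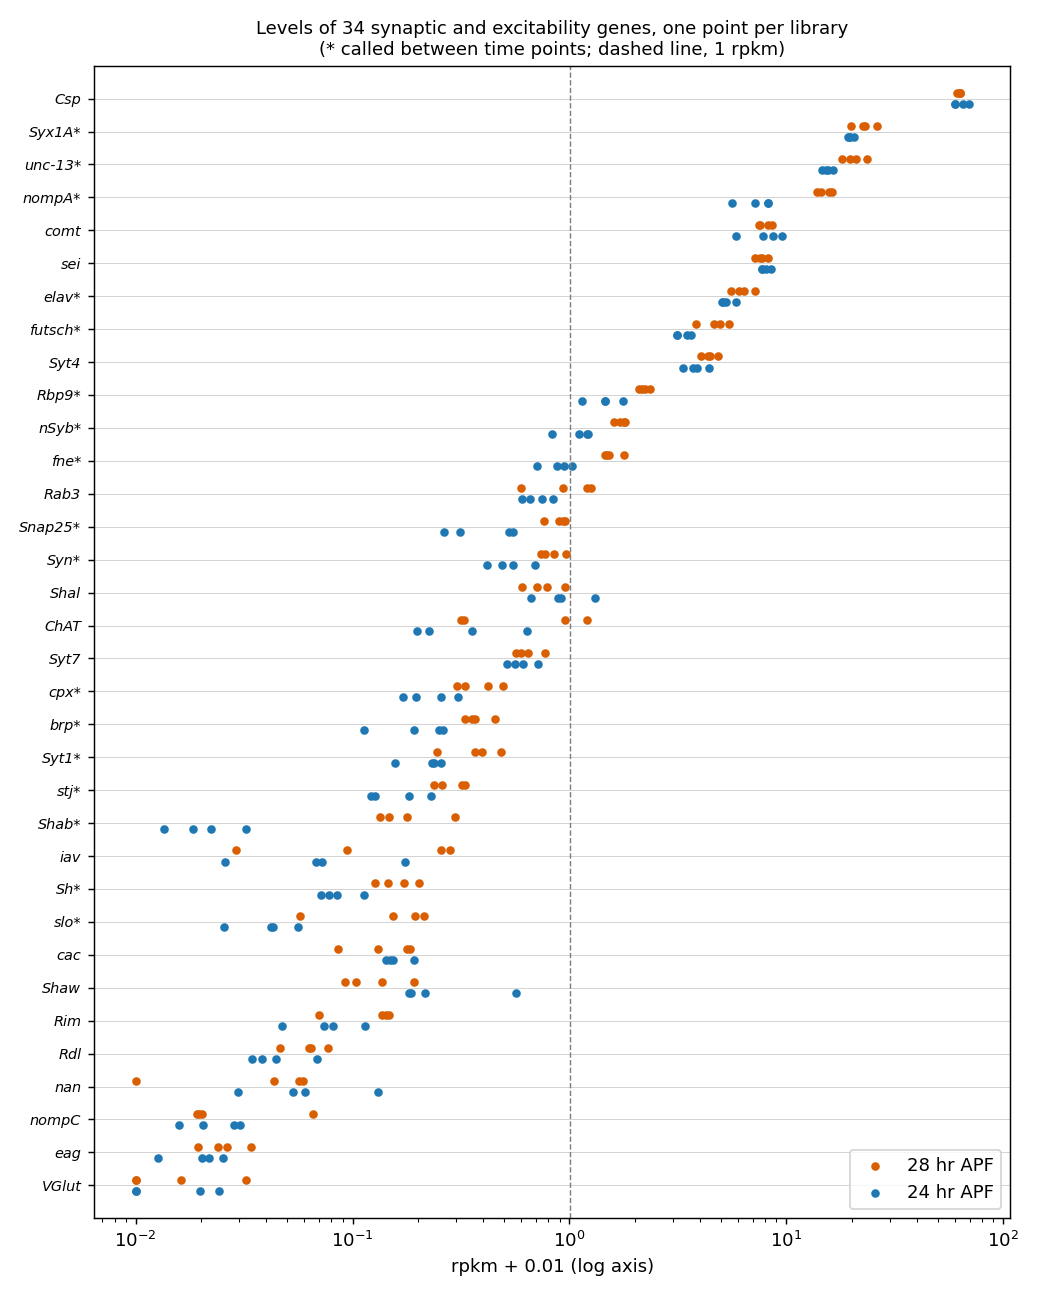
Level of each of the 34 genes in each library, as rpkm + 0.01 on a log axis, with 28 hr APF above 24 hr APF in each row. The order runs from Csp at 62.6 rpkm at the top to VGlut, with 5 reads in all at 28 hr APF, at the bottom; stars mark the 17 genes that rose.

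All 3 members of the ELAV family of neuronal RNA-binding proteins rose. elav, whose product controls splicing and polyadenylation in neurons and is the standard mark of them, was the most abundant. It lies on chromosome X of the BDGP6 assembly from 509235 to 523226 and had 5.52, 6.36, 6.03 and 7.17 rpkm at 28 hr APF, against 5.27, 5.07, 5.87 and 5.06 rpkm at 24 hr APF. The groups overlapped, since replicate 3 at 24 hr APF exceeded replicate 1 at 28 hr APF, and the log2 fold change was 0.27 (standard error 0.08, adjusted p = 0.0196). The call of elav was lost without replicate 2 at 24 hr APF (adjusted p = 0.0584) and without replicate 4 at 24 hr APF (adjusted p = 0.0500359). In the annotation, 27.9% of the exon bases of elav are shared with a noncoding gene on the same strand, lncRNA:enrr, which has no row in the table. Another 6.28% are shared with arg on the other strand. arg had 395 reads at 28 hr APF and 509 at 24 hr APF, where elav had 8335 and 6809.

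The paralogs of elav rose more. fne (found in neurons), on chromosome X from 12917477 to 12950417, had 1.44, 1.51, 1.47 and 1.77 rpkm at 28 hr APF and 1.01, 0.929, 0.865 and 0.701 rpkm at 24 hr APF, so the groups did not overlap, and its log2 fold change was 0.86 (standard error 0.12, adjusted p = 0.000287). Rbp9 had 2.08, 2.15, 2.22 and 2.35 rpkm at 28 hr APF and 1.45, 1.45, 1.75 and 1.14 rpkm at 24 hr APF, again without overlap (log2 fold change 0.64, standard error 0.11, adjusted p = 0.00135). Both stayed past the threshold whichever library was left out. Whether fne and Rbp9 rose more than elav was not tested.

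Of the 5 genes of the vesicle fusion machinery, 4 rose. nSyb, the neuronal synaptobrevin of the vesicle membrane, had 1.59, 1.78, 1.70 and 1.80 rpkm at 28 hr APF and 1.21, 1.10, 1.19 and 0.816 rpkm at 24 hr APF. The groups were separate, with replicate 4 the lowest at 24 hr APF, and the log2 fold change was 0.70 (standard error 0.13, adjusted p = 0.00237). Snap25, one of its partners in the target membrane, had 0.753, 0.939, 0.920 and 0.881 rpkm at 28 hr APF and 0.538, 0.304, 0.253 and 0.514 rpkm at 24 hr APF, from between 54 and 68 reads in a library at 28 hr APF and between 16 and 42 at 24 hr APF. Despite the few reads its groups did not overlap, and its log2 fold change was 1.13 (standard error 0.27, adjusted p = 0.00943).

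Syx1A, the syntaxin that pairs with both, was far more abundant, at 19.9, 23.0, 22.6 and 26.2 rpkm at 28 hr APF and 19.7, 19.2, 19.4 and 20.4 rpkm at 24 hr APF. Its rise was small (log2 fold change 0.25, standard error 0.07, adjusted p = 0.0249), the groups overlapped, and it passed the threshold in 2 of the 8 fits that left out 1 library, those without replicate 4 at 24 hr APF and without replicate 1 at 28 hr APF; in the other 6 the adjusted p lay between 0.0500278 (without replicate 2 at 28 hr APF) and 0.0673 (without replicate 2 at 24 hr APF). Syx1A lies inside eIF4EHP on the same strand, with 10.7% of its exon bases shared, and eIF4EHP had 11341 reads at 28 hr APF and 11198 at 24 hr APF, where Syx1A had 11847 and 9854. cpx, which encodes complexin, a clamp on the fusion complex, had 0.377 ± 0.0866 rpkm at 28 hr APF and 0.222 ± 0.0603 rpkm at 24 hr APF (SD, n = 4 each), and passed with an adjusted p of 0.0220 and a log2 fold change of 0.79 (standard error 0.23). The call of cpx was lost without replicate 2 (adjusted p = 0.0635) or 4 (0.0570) at 24 hr APF and without replicate 3 (0.0595) or 4 (0.0656) at 28 hr APF.

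The remaining gene of this group, comt, encodes NSF, the ATPase that takes fused complexes apart. It had 8.59, 8.18, 7.44 and 7.54 rpkm at 28 hr APF and 7.80, 9.57, 8.66 and 5.87 rpkm at 24 hr APF, with a log2 fold change of 0.03 ± 0.12 (standard error) and an adjusted p of 0.885. At 24 hr APF it was both above and below all the libraries at 28 hr APF, so the point estimate says little about direction.

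Of the 3 synaptotagmins, 1 passed the test. Syt1, the calcium sensor for fast release, had 0.363 ± 0.0981 rpkm at 28 hr APF and 0.211 ± 0.0435 rpkm at 24 hr APF (SD, n = 4 each), with a log2 fold change of 0.81 ± 0.24 (standard error) and an adjusted p of 0.0281. Its groups overlapped, with 51 reads in replicate 3 at 28 hr APF and between 87 and 97 in the other libraries of that time. It passed in 2 of the 8 fits that left out 1 library, those without replicate 3 at 24 hr APF and without replicate 3 at 28 hr APF, and in the other 6 the adjusted p lay between 0.0506 (without replicate 4 at 24 hr APF) and 0.0832 (without replicate 2 at 28 hr APF). Syt4, a synaptotagmin that also acts outside fast release, had a higher level in rpkm and did not pass at 4.41 ± 0.318 rpkm at 28 hr APF and 3.82 ± 0.431 rpkm at 24 hr APF (log2 fold change 0.24, standard error 0.09, adjusted p = 0.0744), although it did without replicate 3 at 24 hr APF (adjusted p = 0.0357). Syt7 had 0.634 ± 0.0901 and 0.593 ± 0.0873 rpkm at 28 hr and 24 hr APF (adjusted p = 0.626).

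Among the 6 active zone and vesicle proteins, brp, unc-13 and Syn rose. brp (Bruchpilot), the core scaffold of the fly active zone, had 0.357, 0.441, 0.319 and 0.345 rpkm at 28 hr APF, against 0.240, 0.183, 0.251 and 0.102 rpkm at 24 hr APF, without overlap (log2 fold change 0.95, standard error 0.25, adjusted p = 0.0133). Syn (synapsin), which tethers vesicles, had 0.839, 0.763, 0.729 and 0.958 rpkm at 28 hr APF and 0.537, 0.407, 0.685 and 0.477 rpkm at 24 hr APF, also without overlap (log2 fold change 0.67, standard error 0.17, adjusted p = 0.0114). On the other strand, Timp covers 4.29% of the exon bases of Syn, and Timp had 1785 reads at 28 hr APF and 1476 at 24 hr APF, where Syn had 594 and 366.

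unc-13, whose product primes vesicles for fusion, stood far above the other genes of the active zone. It had 18.0, 21.0, 19.6 and 23.6 rpkm at 28 hr APF and 16.4, 14.6, 15.3 and 15.6 rpkm at 24 hr APF, and the groups were separate (log2 fold change 0.44, standard error 0.07, adjusted p = 0.00124). The gene lies on chromosome 4 of BDGP6 from 867824 to 912331, and genes on the opposite strand cover 25.2% of its exon bases. The 2 of these with rows in the table, asRNA:CR43425 and asRNA:CR44029, had 1270 and 4401 reads at 28 hr APF, 2.20% and 7.64% of the 57597 reads of unc-13, and 857 and 2916 reads at 24 hr APF, 2.04% and 6.93% of its 42048. Both of them also rose, by log2 fold changes of 0.55 and 0.58 (adjusted p = 0.00259 and 0.0168), and whether the counts used strand is not stated.

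The other 3 genes of this group did not pass. Csp, which encodes a chaperone of vesicle proteins, was the most abundant of the 34 genes and nearly level, at 62.6 ± 0.806 rpkm at 28 hr APF and 63.6 ± 4.49 rpkm at 24 hr APF (SD, n = 4 each), with a log2 fold change of 0.01 ± 0.05 (standard error) and an adjusted p of 0.900. Rim, a scaffold that binds calcium channels, had 0.0603, 0.138, 0.126 and 0.133 rpkm at 28 hr APF and between 0.0372 and 0.104 rpkm at 24 hr APF (log2 fold change 0.77, standard error 0.35, adjusted p = 0.119). It passed without replicate 1 at 28 hr APF (log2 fold change 0.99, adjusted p = 0.0399). Rab3, the small GTPase of synaptic vesicles, had 1.24, 1.20, 0.586 and 0.928 rpkm at 28 hr APF and between 0.596 and 0.825 rpkm at 24 hr APF (log2 fold change 0.51, standard error 0.23, adjusted p = 0.115), and it passed without replicate 3 at 28 hr APF (log2 fold change 0.68, adjusted p = 0.0209).

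**Figure D3:**
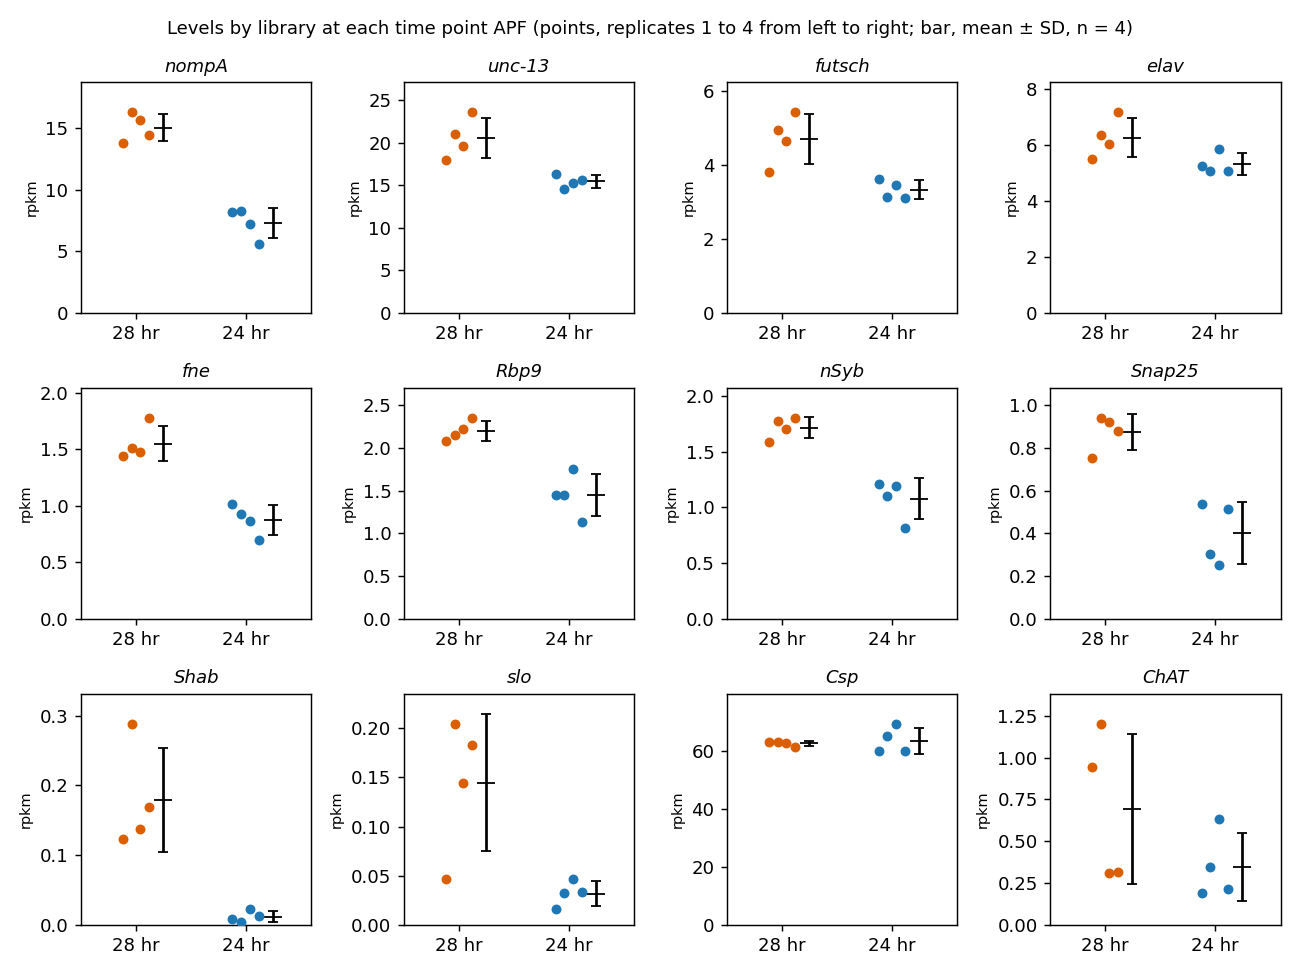
Level in rpkm of 12 of the genes in each library at 28 hr APF (left) and 24 hr APF (right), with the mean and SD of 4 libraries. The groups are separate for nompA, unc-13, futsch, fne, Rbp9, nSyb, Snap25, Shab and slo and overlap for elav, Csp and ChAT; in ChAT, replicates 1 and 2 at 28 hr APF stand above the other 2.

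Genes for making, loading and receiving transmitter were scarce, and none of those tested passed. VGlut, the vesicular glutamate transporter used by motor neurons, had 4, 1, 0 and 0 reads at 28 hr APF and 0, 2, 0 and 2 reads at 24 hr APF, too few to test. ChAT, which makes acetylcholine, the transmitter of fly sensory neurons, had 0.944, 1.20, 0.307 and 0.317 rpkm at 28 hr APF and 0.188, 0.346, 0.630 and 0.216 rpkm at 24 hr APF. Replicates 1 and 2 at 28 hr APF stood above replicates 3 and 4, replicate 3 was the highest at 24 hr APF, and the log2 fold change of 1.04 had a standard error of 0.51 (adjusted p = 0.147). In the annotation, 15.1% of the exon bases of ChAT are shared with VAChT. Rdl, a subunit of the GABA receptor, lay between 0.0362 and 0.0667 rpkm at 28 hr APF and between 0.0245 and 0.0589 rpkm at 24 hr APF (adjusted p = 0.259).

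Of the genes for calcium channels, cac, the pore-forming subunit of the presynaptic channel, did not pass, at 0.135 ± 0.0458 rpkm at 28 hr APF and 0.149 ± 0.0227 rpkm at 24 hr APF (SD, n = 4 each; log2 fold change -0.13, standard error 0.27, adjusted p = 0.756). stj (straightjacket), the auxiliary subunit that brings this channel to the membrane, had 0.228, 0.319, 0.308 and 0.250 rpkm at 28 hr APF and 0.221, 0.117, 0.173 and 0.111 rpkm at 24 hr APF. Its groups did not overlap, although replicate 1 of each time point lay close to the other, and its log2 fold change was 0.86 (standard error 0.27, adjusted p = 0.0321). The call of stj was lost without replicate 2 (adjusted p = 0.0902), 3 (0.0523) or 4 (0.0863) at 24 hr APF and without replicate 2 (0.0813) or 3 (0.0800) at 28 hr APF.

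The potassium channel genes held both the largest increases of the list and the lowest fold changes. Shab, the fly Kv2 delayed rectifier, on chromosome arm 3L from 2895017 to 2959579, had 44, 93, 47 and 65 reads at 28 hr APF and 3, 1, 7 and 5 reads at 24 hr APF. This is 0.123, 0.288, 0.138 and 0.169 rpkm at 28 hr APF, against 0.00831, 0.00359, 0.0223 and 0.0123 rpkm at 24 hr APF, and the ratio of the means was 15.5 (log2 fold change 3.92, standard error 0.46, adjusted p = 0.000111). slo (slowpoke), the calcium-activated BK channel, on arm 3R from 24662491 to 24711595, had 15, 59, 44 and 63 reads at 28 hr APF and 5, 8, 13 and 12 reads at 24 hr APF. Its log2 fold change was 2.22 (standard error 0.47, adjusted p = 0.00494), and the groups were only just separate, with 0.0470 rpkm in replicate 1 at 28 hr APF and 0.0462 rpkm in replicate 3 at 24 hr APF.

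Sh (Shaker), the Kv1 channel of axons and terminals, also rose, with 0.135, 0.193, 0.117 and 0.162 rpkm at 28 hr APF and 0.0676, 0.0751, 0.103 and 0.0613 rpkm at 24 hr APF (log2 fold change 1.02, standard error 0.22, adjusted p = 0.00461). Its relatives Shal and Shaw, the Kv4 and Kv3 channels, did not pass, with log2 fold changes of -0.28 (standard error 0.21, adjusted p = 0.357) and -1.15 (standard error 0.44, adjusted p = 0.0678). Shaw was set apart at 24 hr APF by replicate 3, at 0.556 rpkm against 0.171 to 0.207 rpkm in the other 3 libraries, and lay between 0.0828 and 0.183 rpkm at 28 hr APF. Shal was highest in the same library, at 1.30 rpkm. sei (seizure), the fly ERG channel, had 7.64 ± 0.437 rpkm at 28 hr APF and 8.01 ± 0.380 rpkm at 24 hr APF (SD, n = 4 each; log2 fold change -0.04, standard error 0.06, adjusted p = 0.679), with 14.6% of its exon bases shared with genes on the other strand, one of which, gammaSnap1, had 3065 reads at 28 hr APF where sei had 3106. eag (ether a go-go), related to sei, had between 3 and 8 reads at 28 hr APF and between 1 and 4 at 24 hr APF and was not tested.

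futsch, the fly MAP1B of axonal microtubules and the antigen of the antibody 22C10 that labels sensory neurons, had 3.82, 4.95, 4.64 and 5.42 rpkm at 28 hr APF and 3.62, 3.13, 3.46 and 3.11 rpkm at 24 hr APF. The groups did not overlap, and the log2 fold change was 0.53 (standard error 0.10, adjusted p = 0.00187).

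Of the 4 genes of touch reception, nompA was abundant and the 3 channel genes had few reads. nompA encodes a matrix protein that support cells of the sense organ secrete to tie the tip of the sensory dendrite to the cuticle. The gene, on arm 2R from 11310335 to 11318676, had 13.8, 16.3, 15.6 and 14.4 rpkm at 28 hr APF, against 8.19, 8.24, 7.18 and 5.62 rpkm at 24 hr APF. Every library at 28 hr APF exceeded every one at 24 hr APF (log2 fold change 1.08, standard error 0.11, adjusted p = 5.16e-05). nompC, the mechanotransduction channel of bristles and chordotonal organs, had 2, 2, 2 and 13 reads at 28 hr APF and 4, 1, 2 and 5 reads at 24 hr APF. iav (inactive) and nan (nanchung), which together form a channel of chordotonal neurons, had between 2 and 27 and between 0 and 4 reads in a library at 28 hr APF, and between 2 and 16 and between 2 and 11 reads at 24 hr APF. With 66 reads in all at 28 hr APF and 30 at 24 hr APF, iav was the best covered of these, and it too was high in replicates 1 and 2 at 28 hr APF, at 0.245 and 0.270 rpkm, against 0.0190 and 0.0842 rpkm in replicates 3 and 4. Without the filter on low counts these 3 genes, eag and VGlut were tested and none passed (lowest adjusted p = 0.349, for iav).

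The rise was not equally firm for all 17 genes. Whichever of the 8 libraries was left out, 12 of the 17 passed, namely fne, Rbp9, nSyb, Snap25, brp, unc-13, Syn, Sh, Shab, slo, futsch and nompA. The share of all genes that rose and kept their call in every such fit is not given here, so whether the 12 are firmer than genes in general was not tested. Against a fold change of 1.5 in place of none, 3 of the 17 passed, Shab, slo and nompA (adjusted p = 0.000647, 0.0368 and 0.00420), where 2.37% of all genes tested did so with a higher level. With the replicate number as a block, 14 of the genes rose, against 13.7% of all genes tested. Of the 34 genes, elav, Syx1A, unc-13, ChAT, sei and futsch share more than 5% of their exon bases with another gene, and without these 6, 13 of 23 tested genes rose. Among all genes tested, those that share exon bases included, 15.6% rose. Syn, below 5%, is among the 23.

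The libraries of a time point differed along the list. At 28 hr APF, replicate 1 was the lowest library in 13 of the 17 genes that rose and replicate 3 in the other 4, while replicate 4 was the highest in 9 and replicate 2 in 8. At 24 hr APF, replicate 4 was the lowest in 10 of the 17 and replicate 3 the highest in 8. The libraries at 28 hr APF also split over all genes tested. On the second principal component (18.8% of the variance), replicates 1 and 2 lay at -17.48 and -24.22 and replicates 3 and 4 at 22.15 and 22.54. The libraries at 24 hr APF lay from -15.4 to 11.75. Between the same pairs, ChAT and iav were split, with replicates 1 and 2 both above replicates 3 and 4. This order also held for comt, Csp, Rab3, cac, Shaw, eag and VGlut, and for brp and Syt1, which rose. In Rbp9, cpx and Syt4, replicates 1 and 2 both lay below replicates 3 and 4. Without replicate 4 at 24 hr APF, 13 genes of the list rose, and without replicate 1 at 28 hr APF 17 did, with Rim in place of Syt1. Of all genes, 1522 and 1675 rose in these fits, against 1753 with all libraries. The summed level of the 34 genes without Csp, unc-13 and Syx1A, which take most of the reads, was 364.5 to 430.9 CPM (counts scaled to the library total) at 28 hr APF and 255.6 to 313.5 CPM at 24 hr APF, so the time points did not overlap.

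**Figure D4:**
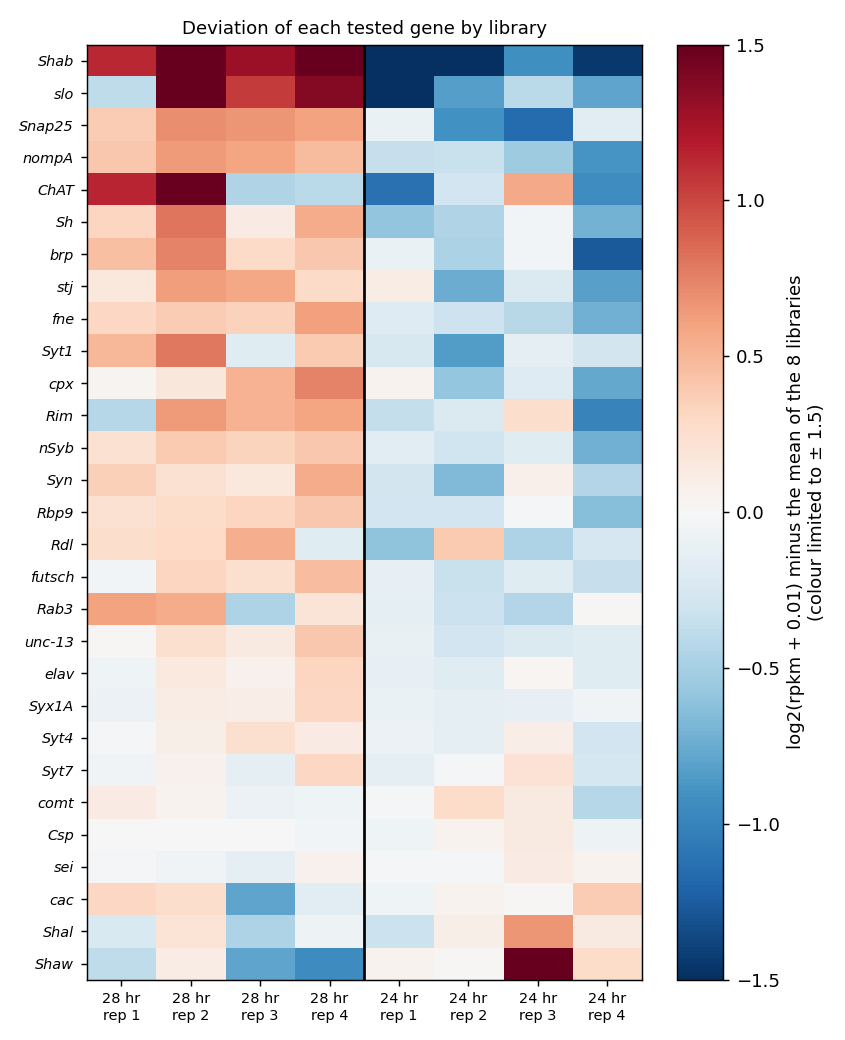
Deviation of each tested gene in each library from its mean over the 8 libraries, as log2(rpkm + 0.01), with genes ordered by fold change and 28 hr APF to the left of the line. Most rows are red at 28 hr APF and blue at 24 hr APF; ChAT and Rab3 are deepest red in replicates 1 and 2 at 28 hr APF, and Shaw in replicate 3 at 24 hr APF.

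Other genes of the same functions, taken from 5 lists, included more that rose than fell. Of 103 tested genes in these lists, 31 rose and 9 fell, 30.1% and 8.74%, against 15.6% and 17.3% of all genes tested. Their median log2 fold change was 0.24. Both genes of the stoned locus, stnA and stnB, hold the same reads and were counted once. The shares differed between lists, from 10 of 18 higher and none lower for neuronal differentiation genes to 3 higher and 3 lower of 26 for transmitter genes; 6 of 21 channel genes, 5 of 22 release genes and 7 of 16 mechanosensory and cilium genes rose, and 2 of each of these 3 lists fell. Whether the lists differ was not tested.

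**Figure D5:**
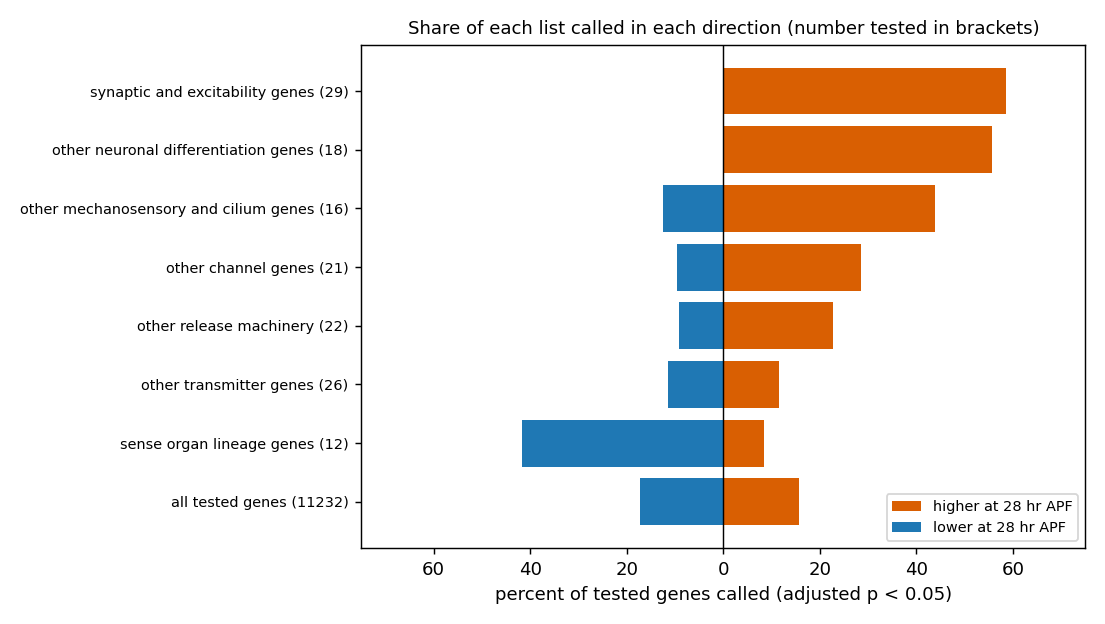
Percent of the tested genes of each list that rose (right) or fell (left) at 28 hr APF, with the number tested in brackets and all genes tested in the bottom row, at 15.6% higher and 17.3% lower. The synaptic and excitability genes and the other neuronal differentiation genes have no bar to the left, and the sense organ lineage genes have the longest one.

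In the list of neuronal differentiation genes, nerfin-1, a zinc finger factor of newborn neurons, had 6.04, 5.80, 5.20 and 5.16 rpkm at 28 hr APF and 2.84, 2.54, 2.67 and 2.46 rpkm at 24 hr APF (log2 fold change 1.11, standard error 0.08, adjusted p = 7.05e-06). nrv3, a sodium pump subunit of neurons, had 1.61 ± 0.124 and 0.903 ± 0.161 rpkm at 28 hr and 24 hr APF (SD, n = 4 each; adjusted p = 0.000657), and fru, which directs male courtship circuits, had the largest increase of these lists, a log2 fold change of 3.32 (standard error 0.22). The 10 genes of this list that rose also include Map205, robo2 and Nrg, which were abundant, at means of 114.6, 101.6 and 54.2 rpkm at 28 hr APF. Their changes were the smallest of the 10, with log2 fold changes of 0.14, 0.27 and 0.20 (adjusted p = 0.0409, 0.00975 and 0.0166). Map205 passed in 1 of the 8 fits that left out 1 library and Nrg in 7. Whether the rise of these abundant genes lay in neurons was not tested. Among transmitter genes, mGluR, the metabotropic glutamate receptor, rose to 1.37 ± 0.328 rpkm at 28 hr APF, against 0.283 ± 0.0439 rpkm at 24 hr APF (SD, n = 4 each; log2 fold change 2.30, adjusted p = 1.23e-05), and GluRIIB, a subunit of the muscle glutamate receptor, rose by a log2 fold change of 0.70 (adjusted p = 0.00515).

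Other genes of these lists fell. Vmat, the vesicular monoamine transporter, fell to 0.136 ± 0.0597 rpkm at 28 hr APF, against 1.595 ± 0.877 rpkm at 24 hr APF (SD, n = 4 each; log2 fold change -3.53, standard error 0.42, adjusted p = 0.000126). prt (portabella), a relative of Vmat, and Tdc2, which makes tyramine, fell with log2 fold changes of -0.67 and -0.46 (adjusted p = 0.0122 and 0.0263). KCNQ, a potassium channel, had 3.11 ± 0.693 and 5.39 ± 0.694 rpkm at 28 hr and 24 hr APF (log2 fold change -0.76, adjusted p = 0.00449), and pyx (pyrexia), a heat-activated TRP channel, 1.30 ± 0.264 and 4.75 ± 1.60 rpkm (log2 fold change -1.84, adjusted p = 0.000112; SD, n = 4 each). In the annotation, genes on the other strand share 26.2% of the exon bases of Vmat, 27.4% of those of KCNQ and 14.9% of those of pyx. The part of these genes in the counts was not tested. The TRP channel genes pain and wtrw rose, by log2 fold changes of 0.65 and 0.59 (adjusted p = 6.02e-05 and 0.000302), as did Oseg6, a gene of transport within cilia, by 0.29 (adjusted p = 0.000572). Of the exon bases of pain, 5.69% are shared with a gene on the other strand. Changes among abundant release genes were small, with log2 fold changes of 0.15 for Rop, 0.14 for dlg1 and Dap160 and -0.33 for Nlg1 (adjusted p = 0.00793, 0.0102, 0.0438 and 0.00141); the call of Dap160 held only without replicate 4 at 24 hr APF or replicate 1 at 28 hr APF, with adjusted p of 0.0663 to 0.110 when any other single library was left out, and that of Tdc2 was lost without replicate 2 at 24 hr APF (adjusted p = 0.0768) or replicate 1 (0.0640) or 3 (0.0606) at 28 hr APF.

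More genes of the sense organ lineage fell than rose. Of 12 tested, 5 fell and 1, numb, rose, or 41.7% and 8.33%, against 17.3% and 15.6% of all genes tested. The summed level of the list went the other way, at 724.5 to 754.1 CPM at 28 hr APF and 658.9 to 702.7 CPM at 24 hr APF, without overlap. sens (senseless), a factor of sense organ precursors, had 0.571, 1.26, 1.70 and 0.482 rpkm at 28 hr APF and 4.81, 5.77, 4.23 and 8.21 rpkm at 24 hr APF (log2 fold change -2.50, standard error 0.37, adjusted p = 0.000572). The library with the highest sens at 24 hr APF, replicate 4, was the one in which most of the 17 genes were lowest at that time. cato and ase, bHLH factors of the same lineage, fell with log2 fold changes of -2.28 and -1.18, phyl with -0.78 and spdo with -0.37 (adjusted p = 0.000761, 0.000318, 0.0471 and 0.00927), and phyl kept its call only without replicate 3 at 24 hr APF, with adjusted p of 0.0573 to 0.143 when any other single library was left out.

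Markers of other cell types were read beside these results. All 8 terminalia markers exceeded 1 rpkm, with summed levels of 2890 to 3173 CPM at 28 hr APF and 2429 to 2685 CPM at 24 hr APF, and the neuron markers elav, nSyb, Syt1 and brp are those given above. Of the terminalia markers, 5 of 8 tested rose and none fell, or 62.5%. The share that rose was 66.7% for muscle and for tracheal markers (9 and 3 tested), 22.2% for glia markers, and 0% for hemocyte, fat body and testis markers. These shares stand beside 58.6% for the synaptic and excitability genes and 15.6% for all genes tested. Whether any of them differ was not tested. Glia markers summed to 925.4 to 962.6 CPM at 28 hr APF and 826.1 to 898.8 CPM at 24 hr APF, mostly nrv2 and Gli, which epithelia also express; of 9 tested, Gli and gcm2 rose and wrapper fell. The call of wrapper was lost without replicate 1 at 28 hr APF (adjusted p = 0.0573) or replicate 1 (0.0527) or 2 (0.0563) at 24 hr APF. The glial determinant repo had 5.21 ± 0.881 rpkm at 28 hr APF and 7.01 ± 2.49 rpkm at 24 hr APF (SD, n = 4 each; log2 fold change -0.39, adjusted p = 0.263). At 24 hr APF it was lowest, at 3.47 rpkm, in replicate 4, the library in which most of the 17 genes were lowest at that time, and it passed as lower without that library (log2 fold change -0.62, adjusted p = 0.00873). Muscle markers summed to 955.0 to 1075 CPM at 28 hr APF and 889.3 to 1166 CPM at 24 hr APF, with 6 of 9 higher, among them Mlc2 (log2 fold change 1.08), and 3 lower, among them the most abundant, Act57B (log2 fold change -0.38). Mhc, the myosin of differentiated muscle, also fell (log2 fold change -1.78, adjusted p = 0.000127), to 0.0719 ± 0.0135 rpkm at 28 hr APF, against 0.252 ± 0.0158 rpkm at 24 hr APF (SD, n = 4 each). Hemocyte markers summed to 124.4 to 130.7 CPM and 120.2 to 171.6 CPM at 28 hr and 24 hr APF and none of 7 passed (crq and Col4a1 had adjusted p of 0.144 and 0.750), and Hml, a defining marker, was below 1 rpkm. Of the fat body genes, Lsp1gamma fell (log2 fold change -1.72, adjusted p = 0.000137) and Lsp2 did not pass (log2 fold change 0.07, adjusted p = 0.953), although it did without replicate 3 at 24 hr APF (log2 fold change 1.44, adjusted p = 0.0259). Fat body markers summed to 27.1 to 66.0 CPM at 28 hr APF and 34.8 to 133.0 CPM at 24 hr APF, with their highest value in replicate 3 at 24 hr APF. That library was the highest of its time for 16 of the 29 tested synaptic and excitability genes, among them Shaw and Shal. Testis markers summed to 86.1 to 98.0 CPM and 88.6 to 120.3 CPM and tracheal markers to 416.5 to 454.8 CPM and 265.7 to 298.6 CPM. Almost all tracheal reads came from verm and serp, which both rose, and of the testis genes twe fell (log2 fold change -0.50) while bol did not pass. Among terminalia markers, the most abundant, drm and cad, rose by log2 fold changes of 0.45 and 0.27, and the call of cad was lost without replicate 3 (adjusted p = 0.0636) or 4 (0.0792) at 24 hr APF or replicate 3 (0.0903) or 4 (0.0567) at 28 hr APF. The part of any of these in the rise of the 17 genes was not tested. Without replicate 1 at 28 hr APF and replicate 3 at 24 hr APF, the libraries with the most fat body marker reads at each time, 15 of the 17 genes rose, Syt1 and stj did not pass (adjusted p = 0.0731 and 0.0542), and Rim and Syt4 passed in addition (adjusted p = 0.0151 and 0.0254). The first of these libraries was the lowest of its time in 13 of the 17 genes and the second the highest of its time in 8. Leaving both out therefore tends to widen the difference, and this fit cannot show the part of fat body content.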

How the data were processed

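Per the methods, the authors used TopHat2 2.0.13 with the dm3 build, counted reads in unioned exons of FlyBase genes with bedtools and deposited raw counts per gene and library, without normalization. Whether strand was used and how reads on overlapping genes were counted is not stated in the sources used here. Names, exon lengths and BDGP6 coordinates came from Ensembl release 115, matched by identifier (16431 of 16845); none were converted, and para and VAChT were not analysed here.

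Time points were compared with edgeR 4.0.16 in R 4.3.3 (TMM, genes kept by filterByExpr at a minimum of 10, two-sided quasi-likelihood test, Benjamini-Hochberg adjustment over all genes tested, threshold 0.05). Standard errors were obtained as |log2 fold change| over the root of the F statistic. On simulated counts for this comparison, 79.9% of 194 genes given a log2 fold change of 1 (of 11126 tested) were recovered, with 7 false calls. These counts were drawn independently for each gene and library, without the split of the libraries at 28 hr APF. Only 5 of the 17 genes that rose had a log2 fold change above 1, so the recovered share does not describe the smaller changes. rpkm used total counts. Alternatives were DESeq2 1.42.0, other scalings and filters, a test against a fold change of 1.5, a replicate block and the removal of 1 library at a time. Chosen after seeing the data were the removal of genes that share exon bases and of the 2 libraries richest in fat body markers. Summaries used Python 3.11.15. No libraries of a time point were duplicates: the lowest chi-square over its degrees of freedom was 7.77. Counting error limits precision: 1 rpkm on a 1 kb gene is 24.5 to 35.8 reads.

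The members and lists were chosen with earlier results of these data known. Every matched member is described. Also named were, from each of the 5 other neuronal lists, up to 3 genes per direction with the largest change among those past the threshold, without overlap of the time points and with at least 1 rpkm; up to 5 sense organ lineage genes by the same rule; and the 2 most abundant markers per cell type. repo, gcm2, wrapper, Mhc, Hml, numb, Map205, robo2 and Nrg were named after their values were seen.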

Additional observations from a re-analysis of the deposited data

Results flagged for a closer look

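In groups of 4 libraries, a library was set apart when its gap to the nearest other library exceeded Dixon's 95% critical share of the group's range. This held in 11 of 158 groups, where chance gives about 1 in 20, or 7.9, so single cases carry little weight. Among the synaptic and excitability genes there were 3. Rim was lowest in replicate 1 at 28 hr APF, at 0.0603 rpkm against 0.126 to 0.138 rpkm in the other libraries. Shaw was highest in replicate 3 at 24 hr APF, at 0.556 rpkm against 0.171 to 0.207 rpkm. nompC was highest in replicate 4 at 28 hr APF, at 0.0558 rpkm against 0.00924 to 0.0102 rpkm, a difference of 13 reads against 2 in each of the others.

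Among the other genes named by rule, mGluR (1.86 rpkm) was highest in replicate 4 and verm (135 rpkm) in replicate 2 at 28 hr APF, and drm, a marker of terminalia, was lowest there in replicate 3 (209 rpkm). At 24 hr APF, Oseg6 (16.6 rpkm) was highest in replicate 1, Tdc2 (4.92 rpkm) in replicate 2, pyx (7.13 rpkm) and the fat body gene Lsp2 (35.6 rpkm) in replicate 3, and Vmat (2.90 rpkm) in replicate 4.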

How the results depend on the processing

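Tested against a fold change of 1.5, 3 of the synaptic and excitability genes passed in place of 17, 7 of the other neuronal genes in place of 40 and 531 of all genes in place of 3692, because a stricter hypothesis is tested. Under the other alternatives the counts lay within 1.5 times these. Leaving out 1 library gave 12 to 17 of the synaptic and excitability genes, all higher, 33 to 37 of the other neuronal genes and 3121 to 3435 of all genes. The number of the 34 genes above 1 rpkm was 12 to 13 without 1 library and 18 at a threshold of 0.5 rpkm. The deviations of same-numbered libraries correlated across genes at -0.161, 0.159, -0.216 and 0.144. These values cannot settle whether such libraries were collected or processed together, which is not stated in the sources used here. Under the replicate block, 14 of the 17 genes, 38 other neuronal genes and 3175 of all genes passed, and cpx, Syt1 and stj did not (adjusted p = 0.0541, 0.0811 and 0.0609). Other scalings moved the median of all genes by at most 0.01 (log2).

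Among single genes, 5 changed sign under an alternative, none of them past the threshold with all libraries, and the cause was not tested. Without 1 library, the log2 fold change of comt ranged from -0.0899 to 0.124, of Csp from -0.0166 to 0.042, of cac from -0.269 to 0.0541, of Col4a1 from -0.0333 to 0.207 and of Lsp2 from -0.273 to 1.44, where it passed (without replicate 3 at 24 hr APF, adjusted p = 0.0259); without the filter on low counts that of Csp was -0.000411. In the 232 fits of single synaptic and excitability genes without 1 library, 23 calls of 5 genes were lost and 3 were gained.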
